A study of Mus musculus with 6 samples.

Results

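Nucleolar ribosome biogenesis factors are the proteins that modify, fold and cut ribosomal RNA in the nucleolus and load ribosomal proteins onto it. The 40 genes described here were listed by symbol, and all 40 were found among the 12656 genes of the deposited expression table. The cells were 4T1, a transplantable mouse mammary carcinoma line that the labels class as triple-negative (TNBC). 3 libraries came from cells treated for 48 h with LP-184, a DNA-damaging small molecule, and 3 from cells given the solvent DMSO. All 6 libraries share the same cell line, the labels name no other allele or agent, and the sources used here give neither the dose of LP-184 nor how long DMSO was applied. Nothing in the labels ties a replicate to its own culture, so every p-value below reflects library-to-library spread that may be technical. Polyadenylated RNA was sequenced.

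Ribosome assembly starts when RNA polymerase I makes a long precursor RNA. Small nucleolar RNPs of the box C/D and box H/ACA classes guide its methylation and pseudouridylation, a particle called the small-subunit processome folds and cleaves the part that becomes the small subunit, and a separate set of factors builds the large subunit. Proliferating tumour cells make many ribosomes, and many of these genes are textbook targets of the transcription factor MYC.

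The values are CPM (reads scaled to a common library size) and their log2. The 6 libraries held 18864368 to 22471753 reads over the genes of the table, and every member had at least 682 reads in every library. Across genes, log2 CPM correlated at r of 0.994 to 0.995 between libraries of the same group and at 0.914 to 0.917 between LP-184 and DMSO libraries. All 8 epithelial marker genes looked up were in the table, with a summed level of 4284 to 4320 CPM in LP-184 libraries and 5457 to 5494 CPM in DMSO libraries. 5 of the 8 were called higher with LP-184 (Epcam, Krt14, Cdh1, Cldn3 and Cldn4) and 3 lower (Krt7, Krt8 and Krt18), and Krt7 differed most in CPM, with a mean of 705 CPM with LP-184 and 1926 CPM with DMSO. None of 4 endothelial markers, 1 of 6 fibroblast markers (Pdgfra) and 3 of 7 leukocyte markers (Lyz2, Cd68 and Csf1r) were in it. The leukocyte markers summed to 59.9 to 72.2 CPM with LP-184 and 12.8 to 14.8 CPM with DMSO. Lyz2 was at 0 in the LP-184 libraries, and Ptprc, the pan-leukocyte marker, was not in the table. Their part in the results below was not tested.

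Most of the 40 factors rose with LP-184, by moderate amounts, and a minority that includes the most abundant of them fell. By limma with Benjamini-Hochberg adjustment over 11931 genes (threshold 0.05), 31 of the 40 members were higher with LP-184, where 38.3% of all genes tested were higher. 6 members were lower (Npm1, Wdr43, Wdr12, Utp20, Nop58 and Pno1), where 40.0% of all genes were lower, and 3 did not pass (Utp18, Heatr1 and Rrp1b). In either direction 37 of 40 members passed, where 78.3% of all genes did. The median log2 fold change was 0.41 over the members and -0.01 over all genes tested. 4 members rose by 2-fold or more (Noc4l, Nop14, Wdr74 and Nolc1), which is 10.0% of the members beside 8.08% of all genes, and none fell by that much, beside 12.6% of all genes. The LP-184 and DMSO libraries did not overlap for 38 of the 40 members, where 79.1% of all genes did not overlap. The median level in DMSO libraries was 145 CPM for the members and 30.3 CPM for all genes tested. The shares above therefore compare genes of unlike abundance, which was not adjusted for. In the authors' deposited table, 31 members were higher and 6 lower at an adjusted p under 0.05, beside 37.6% and 38.6% of its genes. CPM gives a gene's share of a library, so a change in the RNA content per cell cannot be told apart from changes in the other genes.

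**Figure D1:**
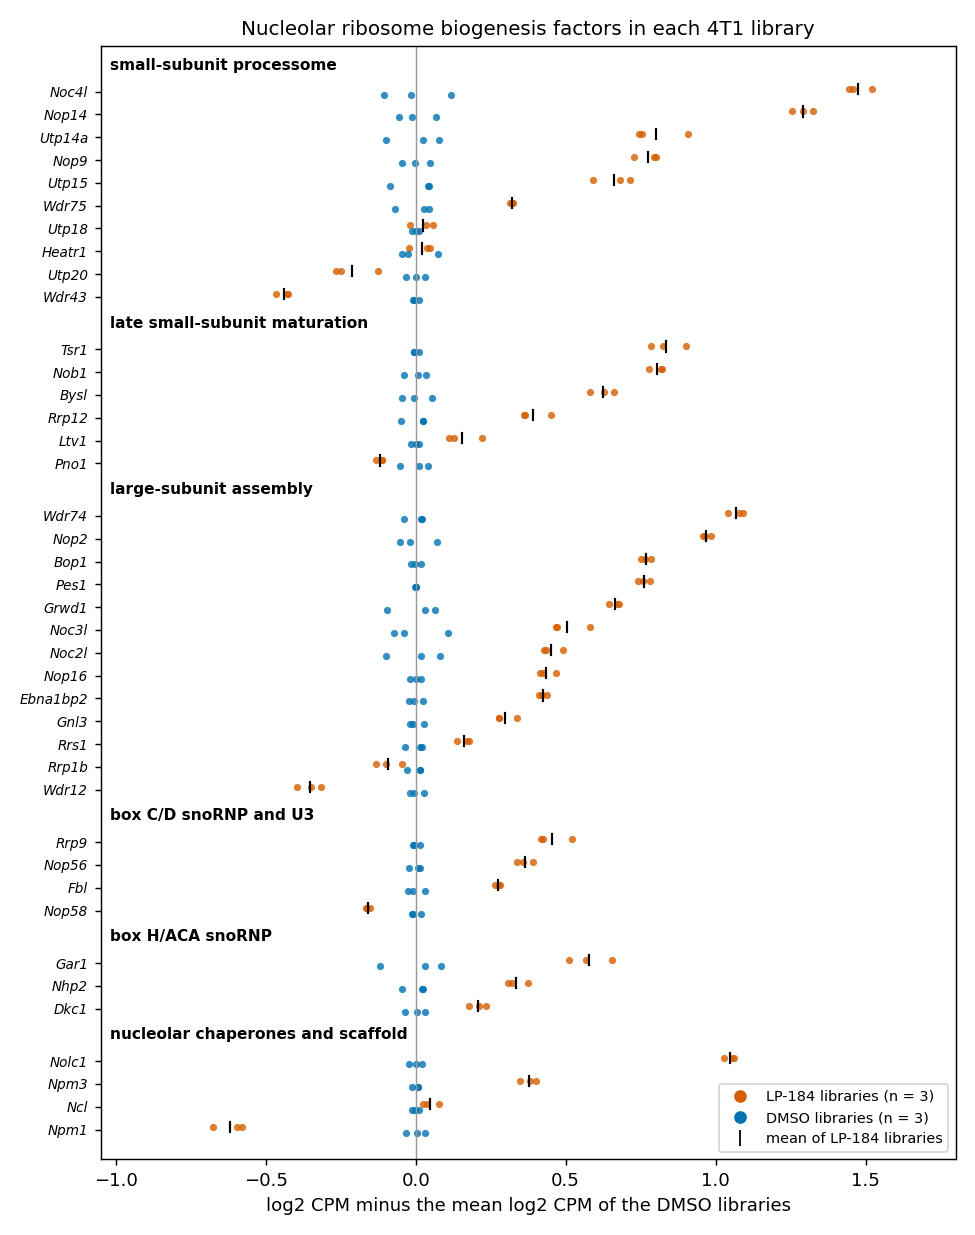
Level of each factor in each library, as log2 CPM minus the mean of the DMSO libraries, grouped by role. Orange points are the 3 LP-184 libraries, blue points the 3 DMSO libraries and black ticks the LP-184 means. The LP-184 points lie to the right for 31 members called higher, from Ncl at 0.05 to Noc4l at 1.48, and to the left for 6 called lower, down to Npm1 at -0.62.

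Gene span moved with the fold changes in these libraries, and the factors are short genes. In the GENCODE annotation of GRCm38, the members span 1.86 to 80.2 kb with a median of 12.4 kb, against a median of 21.8 kb over the 11462 genes tested that have an annotated span. Spearman's rho between span and log2 fold change was -0.31 over the 40 members and -0.50 over the 11462 genes, which share the same libraries. In genes under 10 kb, 15 of 16 members were higher, beside 49.6% of all 3234 genes of that size. Of the 18 members of 10 to 30 kb, 14 were higher, beside 54.1% of 3681 genes, and of the 6 members of 30 to 100 kb, 2 were higher and 3 lower, beside 23.5% of 3233 genes higher. With the span trend subtracted, 23 members were higher and 13 lower, beside 35.3% and 38.9% of all genes, and the members' median log2 fold change was 0.13. Utp20, the longest member at 80.2 kb, stood at -0.21 in the values as deposited and at 0.41 with the trend removed. Ltv1 (-0.16), Rrs1 (-0.11) and Gnl3 (-0.08), all higher as deposited, were called lower with the trend removed.

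**Figure D2:**
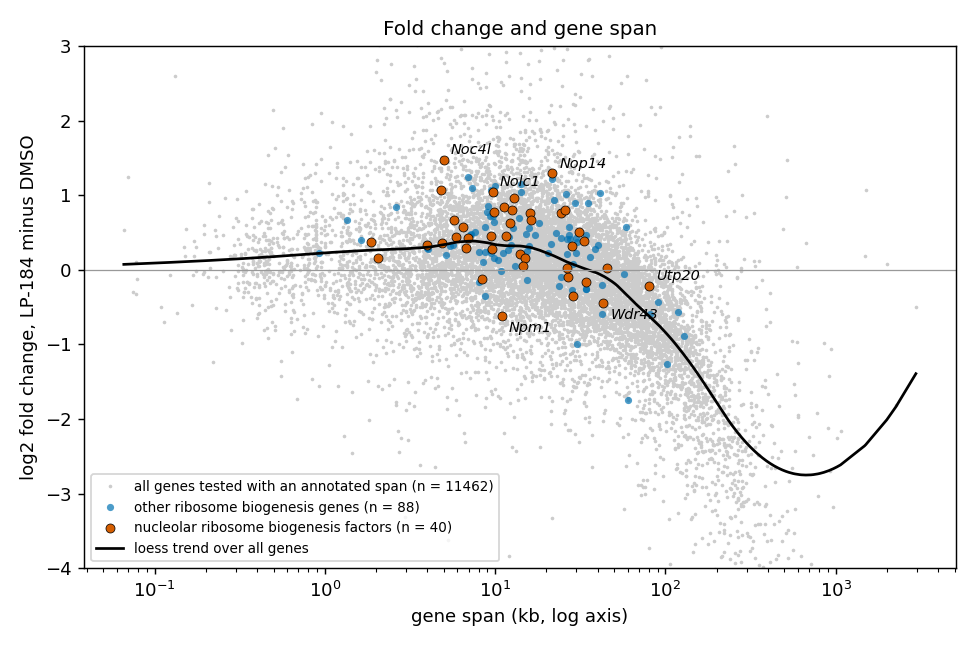
Log2 fold change (LP-184 minus DMSO) against gene span in kb on a log axis, for the 40 factors (orange), 88 other ribosome biogenesis genes (blue) and 11462 genes tested (grey), with the loess trend (black). 136 genes lie outside the plotted range of -4 to 3. Noc4l, Nop14 and Nolc1 lie above the trend and Npm1 below it.

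RefSeq promoter windows in GRCm38.p6, which run from 250 bases before the annotated start to 50 after it, were found for 35 of the 40 members. The hexamer CACGTG, the E-box bound by MYC and related factors, reads the same on both strands. It occurred for 9 of the 35 members (25.7%), for 16 of 70 other ribosome biogenesis genes (22.9%) and for 12.1% of the 8854 genes tested that have a window, any window of a gene counting. Of the 9 members with an E-box, 5 were higher, 3 were lower and Utp18 did not pass. Of the 26 without one, 22 were higher and 2 lower, where 38.3% of all genes tested were higher and 40.0% lower. With the length trend removed, Utp20 (0.41) among the 9 was called higher, and Ltv1 (-0.16) and Utp18 (-0.08) were called lower. 7 of the 9 E-boxes began downstream of the annotated start, by 2 to 37 bases, beside 8 of 20 in the windows of the other ribosome biogenesis genes and 174 of 1286 (13.5%) over those of all genes tested, where a gene can have several windows. For Wdr43 and Grwd1, among these 7, the start used for the window was not the RefSeq start of the gene, so their distances are uncertain. The heptamer CCGGAAG, the core bound by ETS factors, searched on both strands, cannot share a base with CACGTG. It occurred for 13 of 35 members (37.1%), for 34 of 70 other ribosome biogenesis genes (48.6%) and for 21.7% of the genes tested. Of these 13 members, 11 were higher and none lower, and of the 22 without it, 16 were higher and 5 lower, where 38.3% of all genes tested were higher and 40.0% lower. Whether direction differed between members with and without either motif was not tested. The palindromic motif of ZBTB33 was in none of the members' windows and 1.31% of all, and that of NRF1 was in the window of Pno1 and in 2.41% of all. A match is a run of letters and not a measured binding site. The windows below are those of 3 members that rose (Nop2, Pes1 and Tsr1) and the 3 that fell with an E-box in the window (Wdr43, Utp20 and Pno1). They are shown because the same hexamer stands in members that moved in opposite directions in the values as deposited, and capitals mark it. Of the 3 that fell, Utp20 was called higher with the length trend removed, and Pno1 did not pass with median centring.
Nop2, chr6:125131633-125131932, forward strand: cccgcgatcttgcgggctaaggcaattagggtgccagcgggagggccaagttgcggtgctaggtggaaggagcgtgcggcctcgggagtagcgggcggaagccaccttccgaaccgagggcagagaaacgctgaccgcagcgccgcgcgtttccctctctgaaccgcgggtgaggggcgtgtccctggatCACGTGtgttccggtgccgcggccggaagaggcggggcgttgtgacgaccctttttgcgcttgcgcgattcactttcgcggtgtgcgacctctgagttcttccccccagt
Pes1, chr11:3963725-3964024, forward strand: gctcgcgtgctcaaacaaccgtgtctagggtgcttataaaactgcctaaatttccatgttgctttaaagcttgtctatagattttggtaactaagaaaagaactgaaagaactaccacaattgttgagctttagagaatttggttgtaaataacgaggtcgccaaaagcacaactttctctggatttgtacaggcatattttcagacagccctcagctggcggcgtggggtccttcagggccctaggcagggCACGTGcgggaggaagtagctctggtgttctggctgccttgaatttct
Tsr1, chr11:74897830-74898129, forward strand: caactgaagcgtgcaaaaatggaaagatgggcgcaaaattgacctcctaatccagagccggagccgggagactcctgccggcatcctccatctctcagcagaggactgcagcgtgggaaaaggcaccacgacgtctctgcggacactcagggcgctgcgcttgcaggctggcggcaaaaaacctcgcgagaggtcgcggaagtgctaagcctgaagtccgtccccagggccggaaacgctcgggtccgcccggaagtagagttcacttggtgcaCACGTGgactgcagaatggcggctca
Wdr43, chr17:71615965-71616264, forward strand: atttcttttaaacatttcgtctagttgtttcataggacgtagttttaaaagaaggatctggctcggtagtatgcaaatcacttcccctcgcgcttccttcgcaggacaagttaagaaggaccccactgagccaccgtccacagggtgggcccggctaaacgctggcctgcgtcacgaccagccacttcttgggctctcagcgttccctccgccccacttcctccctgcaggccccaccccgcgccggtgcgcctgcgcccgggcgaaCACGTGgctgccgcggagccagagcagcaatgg
Utp20, chr10:88826765-88827064, reverse strand: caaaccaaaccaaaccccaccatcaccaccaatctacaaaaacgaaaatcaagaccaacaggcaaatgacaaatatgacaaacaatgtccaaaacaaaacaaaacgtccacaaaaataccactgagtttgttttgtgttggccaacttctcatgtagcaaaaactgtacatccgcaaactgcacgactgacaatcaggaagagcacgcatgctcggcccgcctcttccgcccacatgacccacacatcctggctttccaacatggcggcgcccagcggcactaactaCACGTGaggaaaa
Pno1, chr11:17211540-17211839, reverse strand: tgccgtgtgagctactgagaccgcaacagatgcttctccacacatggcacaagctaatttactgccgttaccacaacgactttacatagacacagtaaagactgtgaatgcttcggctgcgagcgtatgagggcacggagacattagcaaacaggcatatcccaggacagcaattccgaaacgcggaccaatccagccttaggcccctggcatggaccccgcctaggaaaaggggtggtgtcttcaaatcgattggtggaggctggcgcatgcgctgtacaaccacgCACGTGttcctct

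The small-subunit processome held the largest rises and also both members closest to no change. Of 10 members, 6 were higher, 2 lower and 2 did not pass, where 38.3% of all genes tested were higher and 40.0% lower. Their median log2 fold change was 0.49. With the length trend removed 8 were higher and 2 lower, beside 35.3% and 38.9% of all genes. Noc4l had 176, 167 and 169 CPM in LP-184 libraries, against 66.5, 60.7 and 57.0 CPM in DMSO libraries. That is a 2.78-fold rise (log2 fold change 1.48 ± 0.04, SE, n = 3 each, limma adjusted p = 6.3e-26), the largest of the 40. Nop14, whose yeast counterpart forms a complex with that of Noc4l, had 137, 134 and 130 CPM with LP-184 and 54.0, 57.2 and 52.4 CPM with DMSO. Its log2 fold change was 1.29 ± 0.04 (SE, limma adjusted p = 8.8e-25), and for both genes all LP-184 libraries lay far above all DMSO libraries. Noc4l is a compact gene of 5.00 kb (chromosome 5, reverse strand), and Nop14 spans 21.6 kb on the same chromosome and strand.

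Utp14a, whose yeast counterpart activates the helicase that frees the U3 RNA, had 82.1, 73.9 and 73.4 CPM with LP-184, against 44.5, 46.1 and 40.8 CPM with DMSO (log2 fold change 0.80 ± 0.05, SE). Nop9, an RNA-binding protein with Pumilio-type repeats, rose by 0.77 ± 0.04 on the log2 scale. 4 members belong to UtpA, the subcomplex that in yeast binds the precursor RNA first. They did not move together. Utp15 rose by 0.66 ± 0.04 and Wdr75 by 0.32 ± 0.03, Heatr1 stood at 0.02 ± 0.03 (limma adjusted p = 0.58), and Wdr43 fell by 0.44 ± 0.03 on the log2 scale. Wdr43, the member of this group with the most reads, had 201, 207 and 207 CPM in LP-184 libraries and 277, 277 and 280 CPM in DMSO libraries, with no overlap. Heatr1 had 144, 138 and 143 CPM with LP-184 and 137, 135 and 147 CPM with DMSO, so its groups overlapped. Heatr1 passed the threshold as higher after median centring (0.11) and after removal of the length trend (0.13). Utp20, a very large scaffold protein, fell by 0.21 ± 0.04, and Utp18, of the UtpB subcomplex, stood at 0.02 ± 0.04 (limma adjusted p = 0.53). Utp18 was called higher after median centring (0.11) and lower after removal of the length trend (-0.08).

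Factors that finish the small subunit rose in 5 of 6 cases, where 38.3% of all genes tested were higher. With the length trend removed, 4 of the 6 were higher and 2 lower, beside 35.3% and 38.9% of all genes. Tsr1, a GTPase-like protein of the late precursor, had 89.2, 84.5 and 82.2 CPM with LP-184, against 47.5, 47.5 and 48.1 CPM with DMSO (log2 fold change 0.84 ± 0.05, SE, limma adjusted p = 4.1e-18). Nob1, the endonuclease that makes the final cut of the small-subunit RNA, had 177, 177 and 172 CPM with LP-184 and 97.6, 103 and 101 CPM with DMSO (0.81 ± 0.03). In each of these genes the LP-184 libraries were all higher than the DMSO libraries. Bysl, or bystin, had 136, 139 and 132 CPM with LP-184, against 91.3, 87.6 and 85.2 CPM with DMSO (0.62 ± 0.04). The export factor gene Rrp12 rose by 0.39 ± 0.04 on the log2 scale and Ltv1 by 0.15 ± 0.04. Pno1, the RNA-binding partner of Nob1, was the exception. Pno1 had 173, 173 and 171 CPM with LP-184, against 189, 180 and 192 CPM with DMSO, which gives -0.12 ± 0.03 on the log2 scale (limma adjusted p = 0.00063). With median centring Pno1 stood at -0.03 and did not pass (adjusted p = 0.33). The annotation places 32.3% of the exon bases of Tsr1 on exons of Srr on the opposite strand. The corresponding share was 29.9% for Nop9, 20.9% for Noc2l and 11.5% for Utp14a, and no source used here says whether reads were counted by strand.

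Of 13 large-subunit assembly factors, 11 were higher, Wdr12 was lower and Rrp1b did not pass, where 38.3% of all genes tested were higher and 40.0% lower. Their median log2 fold change was 0.45. With the length trend removed, 7 were higher and 4 lower, beside 35.3% and 38.9% of all genes, and the median was 0.13. Wdr74, a WD-repeat protein of the early large-subunit particle, had 217, 210 and 215 CPM in LP-184 libraries, against 103, 103 and 99.3 CPM in DMSO libraries (log2 fold change 1.07 ± 0.03, SE, limma adjusted p = 1.4e-25). Nop2, a cytosine methyltransferase of the large-subunit RNA, had 338, 344 and 340 CPM with LP-184 and 172, 183 and 168 CPM with DMSO (0.97 ± 0.03). Each of these genes was about as high in every LP-184 library, with no value near those of DMSO. Grwd1, a chaperone of a large-subunit ribosomal protein, rose by 0.66 ± 0.04. Noc3l rose by 0.51 ± 0.05 and its relative Noc2l by 0.45 ± 0.04. Nop16 (0.44), Ebna1bp2 (0.42), the nucleolar GTPase gene Gnl3, which encodes nucleostemin (0.30), and Rrs1 (0.16) rose less. Rrp1b, a nucleolar protein, had the lowest level per kb of annotated exon of the 40. Its log2 fold change was -0.09 ± 0.06 (limma adjusted p = 0.14), and it was called lower after removal of the length trend (-0.19). Nop16 (0.07) and Ebna1bp2 (0.04) no longer passed then, and Rrs1 (-0.11) and Gnl3 (-0.08) were called lower.

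Pes1, Bop1 and Wdr12 encode the PeBoW complex, which is needed to process the large-subunit RNA, and they parted. Pes1 had 394, 400 and 389 CPM with LP-184, against 233, 232 and 233 CPM with DMSO (log2 fold change 0.76 ± 0.02, SE, limma adjusted p = 1.2e-24). Bop1 had 266, 270 and 264 CPM with LP-184 and 155, 158 and 156 CPM with DMSO (0.77 ± 0.03). Wdr12 had 120, 118 and 114 CPM with LP-184 and 153, 149 and 148 CPM with DMSO (-0.35 ± 0.03, limma adjusted p = 1.3e-11). The log2 ratio of Pes1 to Wdr12 averaged 1.75 ± 0.04 in LP-184 libraries and 0.64 ± 0.02 in DMSO libraries (SD, n = 3 each), while that of Pes1 to Bop1 averaged 0.57 ± 0.003 with LP-184 and 0.57 ± 0.02 with DMSO.

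Among 10 such ratios between members, picked with the values in view, 9 separated the groups fully. Each of the 9 gave an exact two-sided permutation p of 0.1, which is the smallest that 3 libraries against 3 allow. With Benjamini-Hochberg adjustment over the 10 that exact p was 0.111, and Pes1 over Bop1 gave an exact p of 0.7. Because the pairs were picked by their values, these p-values cannot test whether partners diverged, and no conclusion is drawn from them. Of all genes tested, 79.1% did not overlap between the groups, and ratios of other gene pairs were not computed. The log2 ratio of Nob1 to Pno1 averaged 0.03 ± 0.01 with LP-184 and -0.90 ± 0.07 with DMSO. That of Utp15 to Wdr43 averaged -0.63 ± 0.07 with LP-184 and -1.74 ± 0.08 with DMSO.

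The guide RNA machinery rose in 6 of 7 members, where 38.3% of all genes tested were higher. In the box C/D group, Rrp9, a protein of the U3 particle, had 174, 175 and 187 CPM with LP-184 against 129, 131 and 130 CPM with DMSO (log2 fold change 0.46 ± 0.03, SE). Nop56 had 715, 724 and 742 CPM with LP-184 and 571, 557 and 568 CPM with DMSO (0.36 ± 0.02, limma adjusted p = 1.4e-17). Fbl, the methyltransferase fibrillarin, had 262, 260 and 262 CPM with LP-184 and 221, 212 and 215 CPM with DMSO (0.27 ± 0.03). Nop58, which pairs with Nop56 in the same particle, went the other way, with 336, 333 and 333 CPM with LP-184 and 378, 371 and 370 CPM with DMSO (-0.16 ± 0.02, limma adjusted p = 1.9e-07). The log2 ratio of Nop56 to Nop58 averaged 1.12 ± 0.03 with LP-184 and 0.60 ± 0.02 with DMSO (SD, n = 3 each). In the box H/ACA group, Gar1 had 58.8, 62.4 and 56.5 CPM with LP-184 against 40.6, 42.1 and 36.5 CPM with DMSO (0.58 ± 0.06). Nhp2, a core protein, had 360, 357 and 374 CPM with LP-184, against 293, 279 and 293 CPM with DMSO (0.33 ± 0.03). Dkc1, the pseudouridine synthase dyskerin, had 249, 255 and 259 CPM with LP-184, against 221, 215 and 225 CPM with DMSO (0.21 ± 0.03). After removal of the length trend, Fbl stood at -0.07 and Dkc1 at -0.11, both called lower, and Nop56 (0.03) and Nhp2 (0.03) did not pass.

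Nolc1, Ncl, Npm1 and Npm3 encode nucleolar chaperones and scaffold proteins. They held the strongest fall of the 40 members and also a rise of more than 2-fold. Npm1, nucleophosmin, had 1306, 1397 and 1383 CPM in LP-184 libraries, against 2094, 2041 and 2132 CPM in DMSO libraries. Its log2 fold change was -0.62 ± 0.02 (SE, limma adjusted p = 9.8e-25), and the groups were far apart. Processed copies of Npm1 exist in the mouse genome, so the assignment of its reads is uncertain. Nolc1, a chaperone of small nucleolar RNPs, had 531, 544 and 541 CPM with LP-184 and 261, 265 and 257 CPM with DMSO (1.05 ± 0.02, limma adjusted p = 3.6e-29). Npm3 had 268, 264 and 258 CPM with LP-184 and 203, 201 and 203 CPM with DMSO (0.38 ± 0.03). Ncl, nucleolin, had 949, 958 and 985 CPM with LP-184 and 940, 926 and 933 CPM with DMSO (0.05 ± 0.02, limma adjusted p = 0.023). The call for Ncl was lost without LP-184 replicate 3 (adjusted p = 0.17), without DMSO replicate 2 (adjusted p = 0.068), without the variance trend (adjusted p = 0.23) and at a threshold of 0.01, and it was called lower after removal of the length trend (-0.27).

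**Figure D3:**
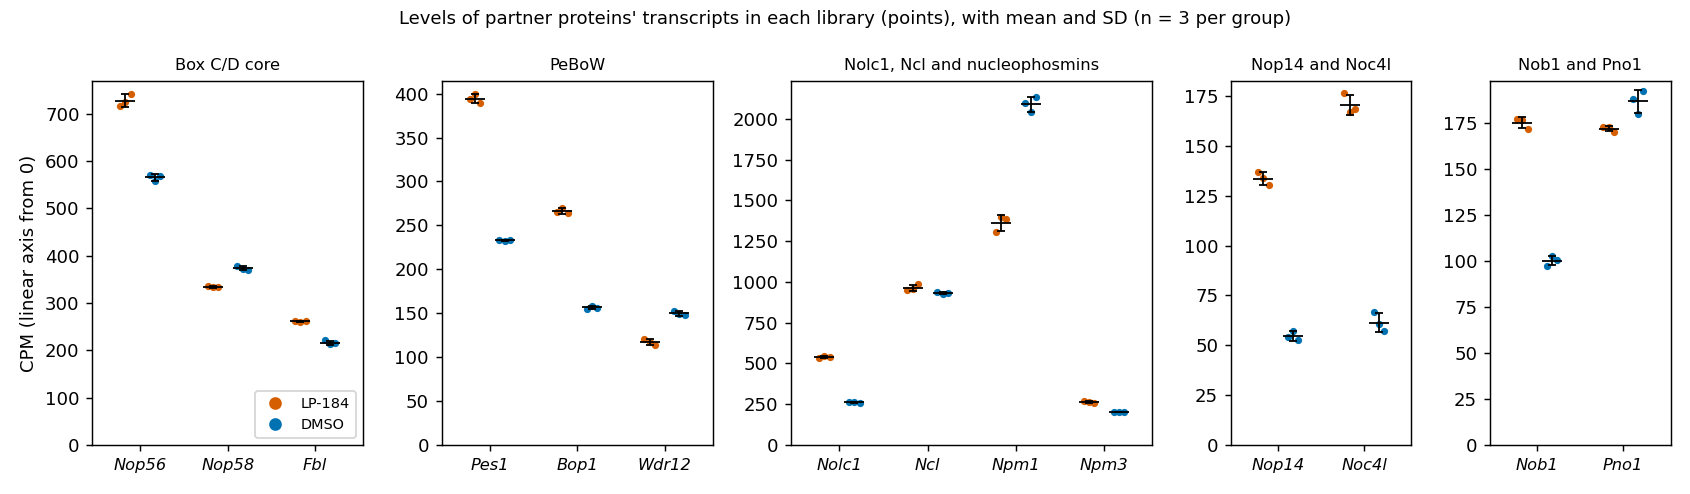
CPM on linear axes from 0 for members that work together, in 3 LP-184 libraries (orange, left of each pair) and 3 DMSO libraries (blue, right), with the mean and SD as black bars. Nop56, Pes1, Bop1, Nolc1 and Nob1 are higher with LP-184, while Nop58, Wdr12, Npm1 and Pno1 are lower.

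Npm1 weighs on the total of the set. The 40 members together took 10029, 10121 and 10158 CPM in LP-184 libraries, against 8906, 8792 and 8924 CPM in DMSO libraries, a ratio of means of 1.14. Without Npm1 the sums were 8723, 8725 and 8775 CPM with LP-184 and 6812, 6751 and 6793 CPM with DMSO, a ratio of 1.29. By role, the ratio was 1.44 for the large-subunit factors, 1.31 for late small-subunit maturation and 0.90 for the chaperones and scaffold. It was 1.24 for box H/ACA, 1.22 for the processome and 1.17 for box C/D. Among the chaperones and scaffold, only Npm1 was called lower, with a ratio of 0.65, while Nolc1, Npm3 and Ncl were called higher. Per kb of annotated exon, Npm1 was the highest of the 40 in both groups, at 511 CPM per kb with LP-184 and 784 CPM per kb with DMSO. Nhp2 came next, at 317 CPM per kb with LP-184 and 252 CPM per kb with DMSO. Exon length is the union over all annotated transcripts of a gene, 10.2 kb for Ncl, and can exceed that of the transcript expressed. The order per kb is therefore uncertain.

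7 members carry annotated snoRNA genes in their own span and strand, 21 in all: Nop56, Nop58, Ncl, Gnl3, Wdr43, Tsr1 and Dkc1. That is 17.5% of the members beside 1.94% of 10765 protein-coding genes of the table. Of the 7 hosts, 5 were higher and 2 lower, where 38.3% of all genes tested were higher and 40.0% lower. With the length trend removed, Tsr1 alone was higher, 5 were lower and Nop56 did not pass, beside 35.3% of all genes higher and 38.9% lower. The directions of the hosts thus depend on that correction. The snoRNAs themselves are not polyadenylated, and their levels were not analysed here.

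The lists of other pathway genes hold further factors of both subunits and of RNA polymerase I. Of these 89 genes, 67 were higher, 17 lower and 5 did not pass, where 38.3% of all genes tested were higher and 40.0% lower. Their median log2 fold change was 0.33. With the length trend removed, 49 of 88 were higher and 22 lower, beside 35.3% and 38.9% of all genes, and the median was 0.17. Among 41 other small-subunit factors, 31 were higher and 8 lower. Nol6 rose by 1.12 ± 0.05 (SE), and Tsr2, a chaperone of a small-subunit ribosomal protein, rose by 1.08 ± 0.05. Shq1, an assembly factor of box H/ACA particles that spans 103 kb, fell by 1.26 ± 0.12 and stood at -0.39 with the length trend removed. Among 41 other large-subunit factors, 31 were also higher and 8 lower. Ftsj3, an RNA methyltransferase, had 354, 348 and 350 CPM with LP-184 against 145, 153 and 147 CPM with DMSO (log2 fold change 1.24 ± 0.03, SE, limma adjusted p = 3.6e-29). Las1l, the endonuclease of the internal spacer, rose by 1.22 ± 0.04 and Zfp622, a cytoplasmic maturation factor, by 1.15 ± 0.04.

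Of 7 initiation factors of RNA polymerase I, 5 were higher and Taf1b was lower, where 38.3% of all genes tested were higher and 40.0% lower. Taf1b had 9.20, 9.01 and 9.12 CPM with LP-184 against 32.4, 30.6 and 29.4 CPM with DMSO, -1.75 ± 0.09 on the log2 scale, and stood at -1.40 with the length trend removed. Its partner in the same promoter factor, Taf1c, rose by 1.09 ± 0.09, and the architectural factor gene Ubtf by 0.48 ± 0.03. With the length trend removed, Taf1c stood at 0.71 and Ubtf at 0.17. The genes in the rest of this paragraph were named once their values were known. In the UtpB subcomplex, where Utp18 stood at 0.02, Tbl3 rose by 0.72 ± 0.04, Wdr3 by 0.42 ± 0.03 and Utp6 by 0.43 ± 0.03, while Wdr36 fell by 0.99 ± 0.02. Tbl3 shares 37.3% of its exon bases with Noxo1 and Tsr2 30.2% with Fgd1, each on the opposite strand. Likewise, Taf1c shares 16.7% with Dnaaf1 and Wdr3 15.7% with Spag17. In UtpA, Utp4 rose by 0.89 ± 0.03 and Nol11 by 0.49 ± 0.03.

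**Figure D4:**
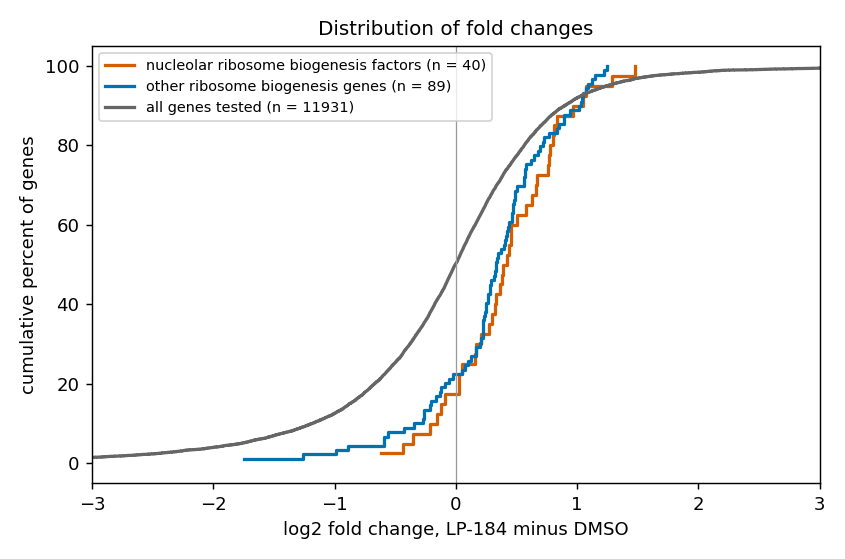
Cumulative percent of genes against log2 fold change (LP-184 minus DMSO) for the 40 factors (orange), 89 other ribosome biogenesis genes (blue) and 11931 genes tested (grey), on an axis cut at -3 and 3. The medians are 0.41 for the factors and 0.33 for the other ribosome biogenesis genes, beside -0.01 for all genes tested.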

How the data were processed

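The members, gene lists, partner ratios and alternatives were chosen with earlier results of these data known. The authors deposited log2 CPM for 12656 genes by symbol, 1 column per library, and its control columns were matched to DMSO libraries by number. Per the submitters' processing notes, the tools named include fastp, edgeR, featureCounts, STAR 2.7 and Subread 2.0, and the builds are hg38 and mm10. No annotation, strand setting or filter is given in the sources used here. 0 reads has 1 value (-3.34) in every library, and with that prior removed 100% of values were whole reads (tolerance 1e-06), which gave the CPM and reads printed here. The authors also deposited a table of log2 fold changes with p-values and adjusted p-values per gene.

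The filter kept 11931 genes, all 40 members among them, whose log2 CPM reached 0 in 3 or more libraries. limma 3.58.1 in R 4.3.3 compared LP-184 with DMSO in a two-sided test, with empirical Bayes on a variance trend and p adjusted by Benjamini-Hochberg. The procedure was tested on simulated counts of independent libraries in which few genes changed. In these data 78.3% of genes tested were called and replicates may be technical, so that simulation does not bear on the calls above. Fold changes are LP-184 minus DMSO. Values per library were given for the 3 called members with the largest change and the most abundant member in each role group, and in each further list the 3 called genes with the largest change were named. Nop58, Wdr12, Ncl, Heatr1, Wdr36 and the other exceptions were picked with their values in view. Spans and exons come from GENCODE M21 (GRCm38, the assembly of mm10), in which 95.9% of symbols matched 1 gene. Promoter windows come from RefSeq (GRCm38.p6), and for 33 of 35 members the last 20 bases lay in the first 600 bases of an annotated transcript. To remove the length trend, fold change was fitted by loess (smoothing 0.3) to log10 gene span and the curve was taken off the LP-184 values. The labels do not say whether replicate numbers pair the cultures, and the main fit did not pair the libraries. Summaries used scipy 1.17.1, numpy 2.4.6 and pandas 2.3.3 under Python 3.11.15.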

Additional observations from a re-analysis of the deposited data

How the results depend on the processing

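The count of members called higher lay between 23 and 33 and that of members called lower between 5 and 13 over 18 alternatives, and the main counts were 31 and 6. With the length trend removed, 13 members were lower and the median log2 fold change of the members was 0.13. With median centring that median was 0.49. The members' summed CPM, 1229 higher with LP-184, was 1803 higher after median centring and 1372 higher after quantile normalization. Removal of the length trend turned the sign of Fbl (-0.073), Dkc1 (-0.11), Ncl (-0.27), Utp18 (-0.079), Utp20 (0.41), Ltv1 (-0.16), Rrs1 (-0.11) and Gnl3 (-0.084). The loess curve lies above 0 for spans of most members, which lowers short genes by construction. Heatr1, not called at 0.02, was at -0.0021 with quantile normalization and between -0.0018 and 0.058 with each library left out. With each library left out in turn, 30 or 31 members were higher and 6 lower, and the median lay between 0.39 and 0.42. For 36 of 40 members neither the direction nor the call changed under any alternative other than the length trend. Those 4 others were Ncl, Utp18, Heatr1 and Pno1. With the replicate block, which treats replicate numbers as pairs, 31 members were higher and 6 lower. Same-numbered libraries correlated at -0.01, -0.02 and -0.01 in their deviations from the group means. No pairing was visible, which cannot show that the cultures were unpaired. Among the 89 other ribosome biogenesis genes, 49 to 69 were higher and 15 to 22 lower, with 49 and 22 after removal of the length trend. Depth was at least 682 reads per member and library, and the median SE was 0.03.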
